A study of Homo sapiens with 3 samples.

Results

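CHD8 promoter peaks without TRRAP are sites near gene starts in human neural stem cells where a CHD8 peak was called and no TRRAP peak overlapped it. They were chosen by measured peak positions: a CHD8 peak on chromosomes 1 to 22 or X that reached within 1 kb, upstream or downstream, of a protein-coding gene's canonical start site, and that shared no base with any TRRAP peak. This rule selected 6140 of 12578 CHD8 promoter peaks (48.8%, Wilson 95% interval 47.9 to 49.7), and the other 6438 shared at least 1 base with a TRRAP peak. The CHD8 list held 23393 peaks in all and the TRRAP list 14735. By gene, 4406 of the 11208 genes with a CHD8 promoter peak (39.3%, 38.4 to 40.2) had no TRRAP peak anywhere in the window. Whether a peak has TRRAP is fixed by the rule, so the shares in the next paragraphs describe how the classes differ in other respects, and no test between conditions was possible.

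The peaks came from chromatin immunoprecipitation followed by sequencing in wild-type neural stem cells. These had been differentiated from H9, a widely used line of human embryonic stem cells. The cells were fixed with 2 mM disuccinimidyl glutarate (DSG), which links proteins to each other, and then with 1% formaldehyde. CHD8 was precipitated with an antibody from Bethyl and TRRAP with one from Invitrogen, with 1 library each; the IgG control library was not analysed here. No treatment or genotype was varied, and a second culture, donor line or antibody lot was not part of the files used, so every interval below covers counting error only. Peak lists do not measure expression. Of 15 neural stem cell marker genes, 14 had a CHD8 promoter peak, as did 10 of 15 neuronal markers and 1 of 25 markers of other cell types. Over all coding genes the count was 11208 of 19970 (56.1%).

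CHD8 is an ATP-dependent chromatin remodeler of the chromodomain helicase family, which binds near the start sites of active genes, and its gene is among those most often disrupted in autism. TRRAP is a large scaffold protein without enzymatic activity that is shared by the TIP60 and SAGA-type histone acetyltransferase complexes and that docks them onto transcription factors such as MYC and E2F. A CHD8 promoter peak without TRRAP is therefore a place where the remodeler was mapped and the acetyltransferase scaffold did not reach the caller's threshold. It does not show that TRRAP was absent: the weakest TRRAP peak in the list had a fold of 4.82 over the caller's background, and weaker signal was not listed.

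The sequences below show 5 of the words whose shares differed between the classes at matched CHD8 strength. Each run is 60 bases on both sides of the word, read 5′ to 3′ along the gene's strand on GRCh38, and it shares no base with an annotated exon. Capitals mark the word on either strand. The YY1 word AAGATGGCG is shown for the strongest CHD8 peaks without TRRAP that allowed it, CPEB4 (chr5:173888021-173888149 on the plus strand) and MORN4 (chr10:97633522-97633650 on the minus strand), and for HCFC1, which had TRRAP (chrX:153972040-153972168 on the minus strand).
CPEB4: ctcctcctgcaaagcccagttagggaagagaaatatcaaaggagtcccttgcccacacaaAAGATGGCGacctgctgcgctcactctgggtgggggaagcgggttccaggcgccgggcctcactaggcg
MORN4: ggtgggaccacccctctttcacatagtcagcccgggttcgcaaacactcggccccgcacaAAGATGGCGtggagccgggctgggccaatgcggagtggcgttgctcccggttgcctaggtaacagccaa
HCFC1: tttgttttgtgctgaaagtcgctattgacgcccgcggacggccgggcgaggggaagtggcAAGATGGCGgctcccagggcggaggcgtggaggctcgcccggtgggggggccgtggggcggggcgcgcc

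The ETS word CCGGAAGT, which reads ACTTCCGG on the other strand, is shown for ISY1 (chr3:129161080-129161207 on the minus strand) and KLHL20 (chr1:173714792-173714919 on the plus strand), both without TRRAP, and for BUD13, which had TRRAP (chr11:116772998-116773125 on the minus strand).
ISY1: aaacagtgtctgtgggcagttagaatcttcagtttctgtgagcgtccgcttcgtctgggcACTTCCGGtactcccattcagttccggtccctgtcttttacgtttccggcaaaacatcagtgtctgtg
KLHL20: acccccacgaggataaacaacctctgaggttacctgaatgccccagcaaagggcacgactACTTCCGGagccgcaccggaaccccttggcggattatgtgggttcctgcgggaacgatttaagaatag
BUD13: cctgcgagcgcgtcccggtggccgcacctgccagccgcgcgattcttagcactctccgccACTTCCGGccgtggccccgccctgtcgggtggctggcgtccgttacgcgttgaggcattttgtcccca

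The SP word GGGGCGGGG and the E-box CACGTG were among the words that were rarer in the peaks without TRRAP. The SP word is shown for MRPL1, without TRRAP (chr4:77862661-77862789 on the plus strand), and for RCOR3, with TRRAP (chr1:211259142-211259270 on the plus strand). The E-box is shown for BAX, without TRRAP (chr19:48954677-48954802 on the plus strand), which held 2 copies, and for KMT2D, with TRRAP (chr12:49060850-49060975 on the minus strand). The NFY word AGCCAAT is shown for ZNF586 (chr19:57769525-57769651 on the plus strand) and AURKAIP1 (chr1:1375235-1375361 on the minus strand), both without TRRAP.
MRPL1: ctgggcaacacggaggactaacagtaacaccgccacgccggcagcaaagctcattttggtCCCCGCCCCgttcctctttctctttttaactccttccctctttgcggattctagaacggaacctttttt
RCOR3: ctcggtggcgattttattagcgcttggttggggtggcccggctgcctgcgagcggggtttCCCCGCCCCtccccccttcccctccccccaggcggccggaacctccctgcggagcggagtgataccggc
BAX: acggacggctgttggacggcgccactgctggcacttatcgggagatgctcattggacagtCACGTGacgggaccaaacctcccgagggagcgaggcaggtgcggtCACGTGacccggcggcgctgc
KMT2D: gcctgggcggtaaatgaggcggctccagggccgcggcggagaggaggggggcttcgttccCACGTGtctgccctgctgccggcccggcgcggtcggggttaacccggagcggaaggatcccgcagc
ZNF586: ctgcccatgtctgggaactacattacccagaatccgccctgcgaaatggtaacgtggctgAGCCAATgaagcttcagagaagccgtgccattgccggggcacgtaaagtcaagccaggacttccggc
AURKAIP1: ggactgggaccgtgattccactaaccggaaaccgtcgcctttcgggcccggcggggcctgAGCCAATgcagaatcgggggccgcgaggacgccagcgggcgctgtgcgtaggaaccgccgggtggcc

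The CHD8 peaks without TRRAP were weaker and narrower than those with it, and strong peaks were found in both classes. Their median CHD8 fold was 8.87 (25th to 75th percentile 7.10 to 11.5), against 12.4 (9.75 to 16.8) with TRRAP. Their median −log10 q was 12.4 against 22.5, and their median width was 362 bp (223 to 581) against 706 bp (470.0 to 977). Peaks under 200 bp made up 18.8% of those without TRRAP (1155 of 6140) and 3.70% of those with it (238 of 6438). The 25th to 75th percentile ranges of fold overlapped between the classes.

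The share without TRRAP fell step by step with CHD8 strength. It was 79.8% (78.1 to 81.3) in the lowest quintile of CHD8 fold, then 61.9%, 45.0% and 32.3%, and 25.2% (23.5 to 26.9) in the highest quintile. Across quintiles of width it was 80.0%, 64.5%, 49.1%, 34.1% and 16.4%; width enters the rule itself, since a wider peak has more bases to share. Of the 100 strongest CHD8 promoter peaks 9 had no TRRAP (9.0%, 4.81 to 16.2), and of the 1000 strongest 227 had none (22.7%, 20.2 to 25.4). Among peaks with TRRAP, the median TRRAP fold rose with each quintile of CHD8 fold, from 7.69 in the lowest to 9.60 in the highest. TRRAP signal below the caller's threshold does not enter these medians. Because of these gradients, values with TRRAP are also given at matched strength below, as the share that the peaks with TRRAP would show if they were spread over the quintiles of CHD8 fold like those without it.

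**Figure D1:**
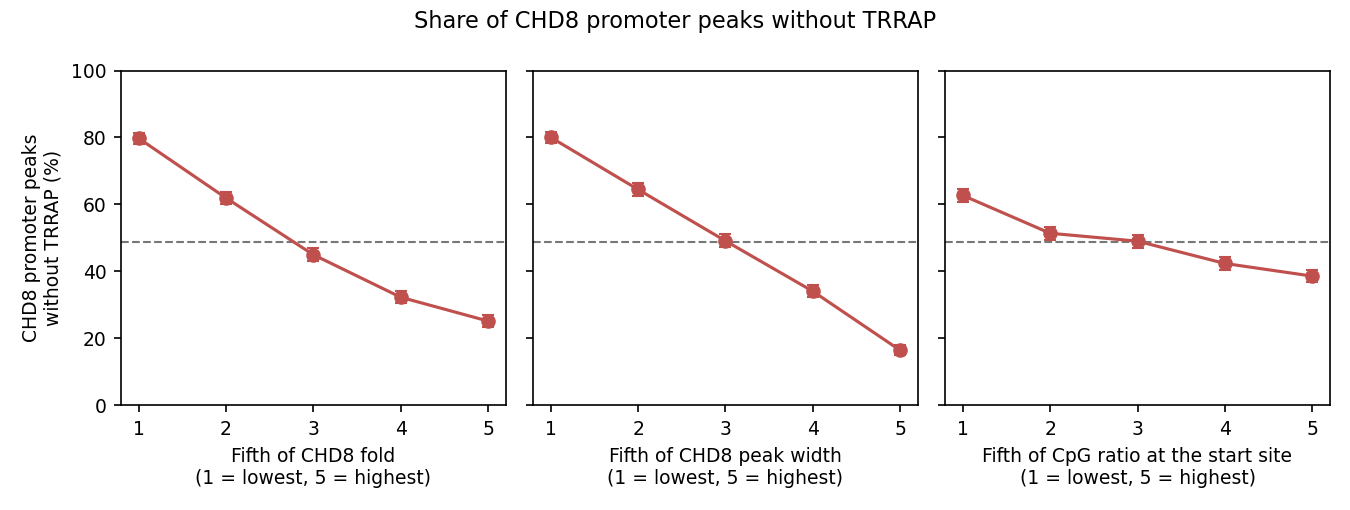
Share of CHD8 promoter peaks without TRRAP (percent, points with Wilson 95% intervals) in quintiles of CHD8 fold, of CHD8 peak width and of the CpG ratio at the start site; the dashed line is the share over all 12578 peaks, 48.8%. The share falls from 79.8% to 25.2% with fold, from 80.0% to 16.4% with width and from 62.7% to 38.6% with CpG ratio.

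The strongest of these peaks had high CHD8 folds, and their nearest listed TRRAP peaks lay at least 5910 bp away. The highest fold belonged to TPGS1, which encodes a subunit of the tubulin polyglutamylase complex (fold 65.9, −log10 q 227), followed by MRFAP1L1 (64.6) and CPEB4, an RNA-binding regulator of polyadenylation and translation (64.1). MORN4 followed with 59.2, and USF1, itself an E-box binding factor, with 54.8. ZC3HC1, a nuclear pore-associated protein, had 51.3, and the RNA methyltransferase gene METTL16 and TOR1A, which encodes the torsin ATPase of the endoplasmic reticulum, both had 47.3. RBM26, an RNA-binding protein, had 46.0. AKT1S1, an inhibitor of the growth kinase complex mTORC1, and SHLD1, a subunit of the DNA repair complex shieldin, both had 44.7, and the zinc finger gene ZNF615 had 44.2. The edge of the nearest TRRAP peak was between 5910 bp (MRFAP1L1) and 270938 bp (CPEB4) away, and 12 of these 12 genes had no TRRAP peak in their window. The summit lay within 100 bp of the start site in 7 of the 12. The YY1 word stood within 100 bp of the summit in 8 of the 12, against 3.29% of all CHD8 promoter peaks without TRRAP. The word was more frequent at strong peaks of both classes: 17.5% without TRRAP and 14.8% with it in the highest quintile of CHD8 fold. Equally strong peaks with TRRAP were not counted. For comparison, the strongest CHD8 promoter peaks with TRRAP were KMT5B (CHD8 fold 93.7, TRRAP fold 26.3), ZC3H6 (88.0 and 28.2) and SNX5 (87.1 and 12.9).

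The widest peaks without TRRAP were at the start sites shared by TMEM69 and GPBP1L1 (2934 bp, fold 31.8), at SERBP1, an mRNA-binding protein (2243 bp, fold 41.1), and at AKT1S1 and TBC1D17 (2167 bp). Their nearest TRRAP peaks were 62053, 253947 and 6175 bp away, so none of these CHD8 peaks bordered a listed TRRAP peak. TRRAP signal below the caller's threshold at these sites cannot be seen in the lists.

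Other peaks of the class did border a listed TRRAP peak. At PTPRJ, a receptor tyrosine phosphatase, and at ZNF610 the CHD8 peak (folds 11.5 and 7.98) abutted a TRRAP peak with 0 bases between them, and at ABTB2 (fold 8.87) 1 base lay between them. On the other side of the rule, the CHD8 peaks at CNOT6L, a deadenylase (fold 7.54), at C8orf82 (6.66) and at MAPKAPK2, a stress kinase (8.43), counted as having TRRAP through 1 shared base. Gaps of at most 50 bases to the nearest TRRAP peak were few, in 97 of 6140 peaks (1.58%, 1.30 to 1.92). Wider limits took in more of the class: 476 peaks (7.75%) had at most 200 bases and 1501 (24.4%) at most 1000 bases. The median distance was 30796 bp, and the upper quartile was 96791 bp.

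Split by whether TRRAP lay elsewhere in the window, the class held 2 kinds of promoter, and CHD8 sat at different places in them. In 4658 peaks (75.9%, 74.8 to 76.9) the assigned gene had no TRRAP peak anywhere in its window, and in 1482 (24.1%, 23.1 to 25.2) a TRRAP peak lay elsewhere in the same window. In the first kind, summits were centred on the start site (median −1.0 bp, middle 50% between −101 and 110.0 bp), as in the peaks with TRRAP (−20.0 bp, −143 to 88.0 bp). Summits of this kind lay within 100 bp of the start site in 48.4% (47.0 to 49.8), against 45.1% (43.9 to 46.3) with TRRAP and 12.01% (10.5 to 13.8) of the second kind. In the second kind, the median summit lay 317.5 bp downstream of the start site (middle 50% between −242 and 645 bp), and 66.1% of summits were downstream (980 of 1482). These peaks were narrow (median 241 bp against 428.5 bp in the first kind) and weak (median fold 7.54 against 9.31). In 1242 of the 1482 (83.8%, 81.8 to 85.6) the same gene also had another CHD8 promoter peak that did share bases with TRRAP. The median distance from these peaks to TRRAP was 310.0 bp. By the rule, a peak of the second kind must lie off a TRRAP peak in the same window. Its position and its distance to TRRAP therefore partly follow from the rule.

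**Figure D2:**
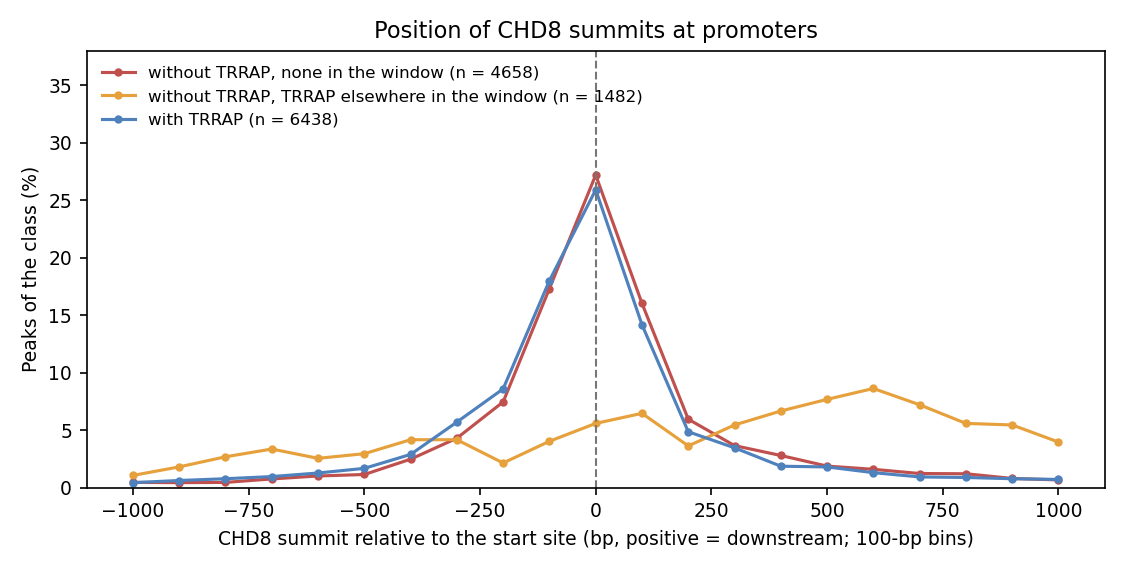
Share of CHD8 summits (percent of each class) by position relative to the canonical start site, in 100-bp bins. The 4658 peaks of genes with no TRRAP in the window and the 6438 peaks with TRRAP both have their maximum in the bin centred on the start site (27.2% and 25.9%), where the 1482 peaks with TRRAP elsewhere in the window have 5.60%.

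By annotation of the assigned canonical transcript, 46.2% of summits without TRRAP lay upstream of the start site (45.0 to 47.5), 20.5% in an untranslated exon, 8.91% in a coding exon and 24.2% in an intron (23.1 to 25.3). With TRRAP at matched CHD8 fold, 53.8% lay upstream, 20.0% in an untranslated exon, 6.59% in a coding exon and 19.3% in an intron. Summits more than 200 bp downstream of the start site made up 26.0% of the class (24.96 to 27.2), against 20.6% with TRRAP at matched fold and 19.3% at matched width. An opposite-strand start site of another coding gene within 1 kb, the arrangement of a bidirectional promoter, was found for 8.78% (8.10 to 9.51) of the peaks without TRRAP, against 6.42% with TRRAP at matched fold, although the unmatched share with TRRAP was higher (9.38%). Opposite-strand starts of long non-coding RNAs were less frequent, at 19.6% (18.7 to 20.7) against 21.6% at matched fold, but the share at matched width, 20.5%, lay within the interval.

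Median CpG content was lower in the class without TRRAP, taken as a whole. CpG dinucleotides are depleted across most of the genome and kept in the CpG islands that cover many promoters. The CpG ratio, observed over expected CpG within 500 bp of the start site, had a median of 0.786 without TRRAP (25th to 75th percentile 0.698 to 0.865) and 0.829 with it (0.746 to 0.900). The difference was −0.0422, and it was −0.0458 when taken within quintiles of CHD8 fold, with the same sign in each quintile. Median GC content was 63.7% and 66.2%. From the lowest to the highest quintile of CpG ratio the share without TRRAP ran from 62.7% (60.8 to 64.6) to 38.6% (36.7 to 40.5). The 2 kinds of promoter differed here as well: the median ratio at the start site was 0.767 where the window held no TRRAP. It was 0.848 where TRRAP lay elsewhere in the window, above the 0.829 of peaks with TRRAP. Within 200 bp of the CHD8 summit the order was the reverse. The medians there were 0.809 with no TRRAP in the window and 0.774 with TRRAP elsewhere in it, against 0.869 with TRRAP.

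Sequence words recognised by transcription factors were counted as exact matches to either strand of the bases up to 100 bp from the CHD8 summit. Besides the 5 words printed above, the search covered words for E2F (TTCCCGCC), NRF1 (CGCATGCG), CRE (TGACGTCA), CTCF (CNAGGNGGC), REST (TTCAGCACC), ZNF143 (CTACAATTC), AP-1 (TGAGTCA), RFX (GTTGCCATG), BANP (CTCGCGAG), SOX (CATTGTT), POU (ATGCAAAT), the proneural E-box (CAGCTG), TEAD (GGAATGT) and HIF (TACGTGC), and TATAAAA, the core promoter box. No word contains another in full. Of 20 words searched, 6 were more frequent without TRRAP than with it at matched CHD8 fold, in that the matched share lay below the counting interval: the ETS, NRF1, YY1, NFY, ZNF143 and REST words. Another 5 were less frequent: the E-box and the E2F, SP, CRE and CTCF words. The matched shares carried no interval of their own, and those of the REST and ZNF143 words rested on only 19 and 10 peaks with TRRAP. A match describes the letters only and not binding.

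The ETS word, bound by factors such as GABP and ELK, occurred in 374 of 6140 peaks without TRRAP (6.09%, 5.52 to 6.72) and in 352 of 6438 with it (5.47%, 4.94 to 6.05), or 3.10% at matched fold. All coding start sites, with or without CHD8, had it in 5.09% of windows of the same size. Here and below, those windows were centred on the start site and not on a CHD8 summit. ISY1 and KLHL20, printed above, belong to this group, as do SF3B4, a splicing factor (fold 39.8), and ZNF776 (37.6), the strongest carriers. The difference widened with CHD8 strength: in the highest quintile of fold the word stood in 20.4% of peaks without TRRAP (17.4 to 23.7) and 9.56% with it (8.31 to 10.97), and in the lowest quintile in 0.847% and 1.18%, whose intervals overlapped. Read the other way, 41.7% (36.4 to 47.3) of peaks with the word in the highest quintile had no TRRAP, against 22.8% (21.1 to 24.6) of peaks lacking it. Carriers without TRRAP were centred at the start site (median summit −25 bp). The word stood in 7.79% (7.06 to 8.60) of peaks with no TRRAP in the window and in 11 of 1482 peaks (0.742%, 0.415 to 1.32) where TRRAP lay elsewhere in it. Only 12.01% of summits of the latter lay within 100 bp of the start site, a position that partly follows from the rule.

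The YY1 word was most frequent among the strongest CHD8 peaks of both classes. It occurred in 3.29% of peaks without TRRAP (2.87 to 3.77, 202 peaks) and 5.34% with TRRAP (4.82 to 5.92, 344 peaks), so the unmatched share was lower without TRRAP, but at matched CHD8 fold the peaks with TRRAP had 2.18%. In the fourth quintile of fold it stood in 5.91% without TRRAP (4.49 to 7.75) and 2.64% with it (1.98 to 3.52). In the highest quintile it stood in 17.5% (14.8 to 20.7) and 14.8% (13.2 to 16.4), with overlapping intervals. Carriers without TRRAP had a median fold of 16.8 and included TPGS1, CPEB4, MORN4 and USF1. All coding start sites had the word in 2.71% of windows.

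The NFY word, bound by the CCAAT-box factor NF-Y, was also more frequent: 4.33% (3.85 to 4.87) without TRRAP against 3.12% (2.72 to 3.58) with it and 3.49% at matched fold. Both classes lay below the 5.82% of all coding start sites. MORN4 and RPA2, a subunit of the single-strand DNA binding complex of replication (fold 37.2), were the strongest carriers. The NRF1 word occurred in 1.61% (1.33 to 1.959) against 1.33% at matched fold, which lay at the edge of the interval; 1.34% at matched width lay within it, and the unmatched share with TRRAP was 1.60%. All coding start sites had it in 1.93%. MRPL22 and NDUFS7, both mitochondrial proteins, were its strongest carriers without TRRAP (folds 36.7 and 35.8), and both also held the YY1 word. The REST word (33 peaks, 0.537%, 0.383 to 0.754, against 0.183%) and the ZNF143 word (15 peaks, 0.244%, 0.148 to 0.403, against 0.0717%) were rare, as they were at all coding start sites (0.280% and 0.170%). Unmatched, the shares with TRRAP were 0.295% (0.189 to 0.461, 19 peaks) for REST and 0.155% (0.0844 to 0.286, 10 peaks) for ZNF143. Both intervals overlapped those without TRRAP. At matched width the REST share with TRRAP was 0.370%, just below the interval. OXA1L, which inserts proteins into the inner mitochondrial membrane (fold 36.3), and RPS6KB2 (20.8) led the carriers of the ZNF143 word, and CDK5RAP1 led those of the REST word (27.0).

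The SP word, a GC box bound by SP and KLF factors, was rarer without TRRAP: 14.5% (13.6 to 15.4, 889 peaks) against 19.4% (18.5 to 20.4) with it and 20.4% at matched fold. All coding start sites had it in 18.0% of windows centred on the start site and not on a CHD8 summit. The effect of that shift was not tested. Peaks without TRRAP lay below that 18.0% and peaks with TRRAP above it. Its strongest carriers without TRRAP were NSFL1C, a cofactor of the p97 ATPase (fold 44.2), and MRPL44, a mitochondrial ribosomal protein (42.5). In each quintile of fold the share without TRRAP was lower among carriers of this word, and in the highest quintile it was 16.8% (13.2 to 21.1) against 26.5% (24.7 to 28.4).

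The E-box, bound by MYC with MAX and by USF factors, was likewise rarer: 4.84% (4.33 to 5.40, 297 peaks) without TRRAP against 7.61% (6.99 to 8.28) with it, or 7.43% at matched fold, and 5.67% of all coding start sites. WASHC2A (fold 32.7, summit sequence present in 2 copies) and ZNF814 (31.8) were the strongest carriers, and the promoter of BAX, the apoptosis effector printed above, had a fold of 20.8. The E2F word followed with 3.27% (2.86 to 3.75) against 4.20% at matched fold and 2.77% of all coding start sites, with DUS1L (32.7) and the ribosomal protein gene RPS7 (32.3) as its strongest carriers, and the CRE word, bound by CREB and ATF factors, with 1.21% (0.961 to 1.51) against 1.97% and 2.03% in the same order. The CTCF word occurred in 10.2% (9.43 to 10.9) against 11.8% and 9.55%.

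**Figure D3:**
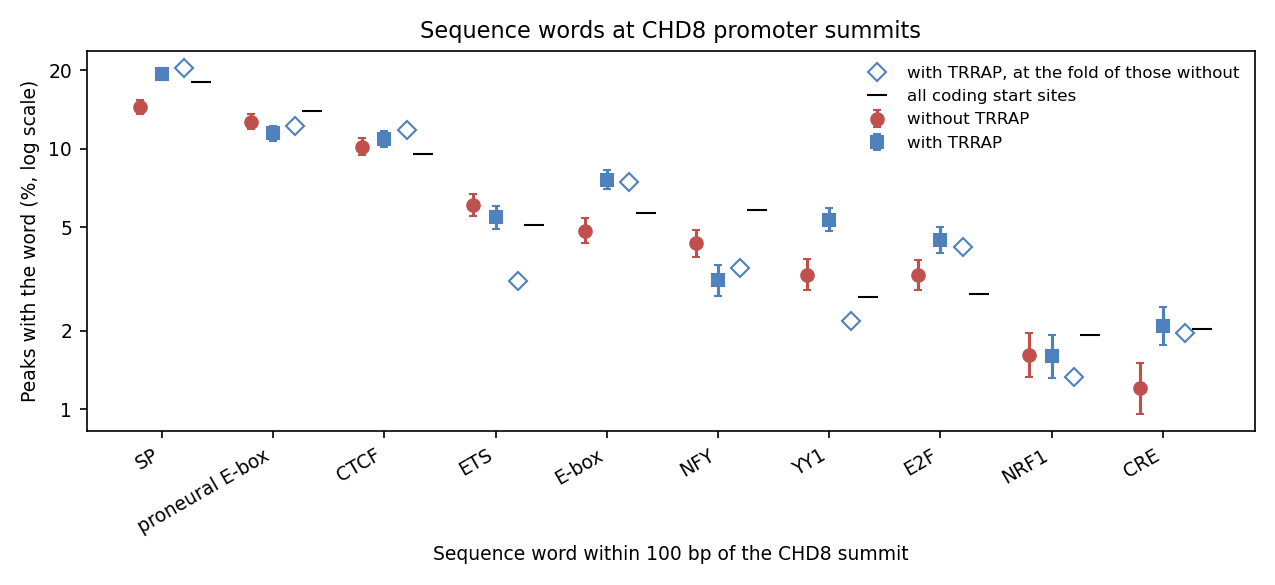
Percent of CHD8 promoter peaks (log scale) with each sequence word within 100 bp of the summit, for the 10 words found in at least 200 peaks: without TRRAP and with TRRAP (points with Wilson 95% intervals), with TRRAP at the CHD8 fold of those without (diamonds) and in windows of the same size at all coding start sites (dashes). The ETS word at 6.09% lies above its diamond at 3.10%, and the SP word at 14.5% and the E-box at 4.84% lie below theirs at 20.4% and 7.43%.

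Gene groups were compared through the share of their CHD8-occupied genes that had no TRRAP in the window, against 39.3% of all CHD8-occupied genes and against the share expected from each group's quintiles of CHD8 fold. Of 48 lists with at least 10 occupied genes, the counting interval left out the expected share in 11, above it in 6 and below it in 5. The lists share genes and were written with earlier results of these data known, so the counts are descriptions.

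Genes of oxidative phosphorylation, the mitochondrial ribosome and the peroxisome lay above their expected share without TRRAP, whereas mitochondrial carrier and import genes, 24 of 58 (41.4%, 29.6 to 54.2, expected 37.04%), did not. Nuclear genes of oxidative phosphorylation, which encode the respiratory chain and ATP synthase, had CHD8 in 77 of 77 cases and no TRRAP in 42 (54.5%, 43.5 to 65.2, expected 31.7%). COX8A, a subunit of cytochrome oxidase (fold 38.04), NDUFS7, of complex I (35.8), and ATP5F1A, of ATP synthase (34.9), had the highest CHD8 folds among them. Mitochondrial ribosomal protein genes had none in 37 of 80 (46.2%, 35.7 to 57.1, expected 29.5% from fold and 35.95% from width, which lay within the interval), led by MRPL44 (42.5), MRPL22 (36.7) and MRPL1 (33.6). Cytosolic ribosomal protein genes, with a similar median CHD8 fold (17.7 against 17.9), had none in 28 of 85 (32.9%, 23.9 to 43.5, expected 30.8%), with RPS7 (32.3), RPL8 (30.97) and RPS18 (29.6) strongest. Peroxisome genes had none in 11 of 16 (68.8%, 44.4 to 85.8, expected 35.8%): PEX3, which places membrane proteins in the peroxisome, had a fold of 41.6, PEX14, part of the import pore, 37.6, and PEX7, a targeting signal receptor, 20.4. The oxidative phosphorylation, mitochondrial ribosome and peroxisome genes without TRRAP drew on 46, 37 and 12 separate CHD8 peaks.

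Mediator and ZNF genes, which act in transcription, also lay above the share expected from fold. Mediator subunits, which link transcription factors to RNA polymerase II, had no TRRAP in 18 of 33 cases (54.5%, 37.99 to 70.2, expected 31.2% from fold and 40.01% from width, which lay within the interval), with MED18 and MED23 (both fold 30.5) and CCNC, the cyclin of its kinase module (26.5), strongest. RNA polymerase subunits had none in 17 of 34 (50.0%, 34.1 to 65.9, expected 34.7%), with POLR3B (25.2), POLR2C and POLR3A (both 16.4); the interval reached the expected share, and the 17 genes carry 16 symbols, since POLR2J3 names a pair of near-identical copies. Genes named ZNF, most of them C2H2 zinc finger repressors, had none in 203 of 426 (47.7%, 43.0 to 52.4, expected 38.1%), led by ZNF615 (44.2), ZNF675 (42.9) and ZNF121 (41.1). For those off chromosome 19 (42.4%, 36.0 to 49.0, expected 37.5%) the interval held the expected share. ZBTB and SCAN zinc finger genes gave 29 of 61 (47.5%, 35.5 to 59.8, expected 35.6%), with ZBTB22 (28.3), ZBTB7A (22.1) and ZBTB3 (20.4). Aminoacyl-tRNA synthetase genes gave 18 of 38 (47.4%, 32.5 to 62.7, expected 34.1%), with KARS1 (29.2), SARS2 (28.3) and YARS2 (23.5).

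Replication-dependent histone genes, which lie in clusters and often share divergent promoters, had no TRRAP in 31 of 60 cases (51.7%, 39.3 to 63.8, expected 38.4% from fold and 39.4% from width, which lay within the interval). The excess over the share expected from fold was 13.2 points, and it was 2.90 points with windows of 2500 bp and 6.51 points among CHD8 peaks above the median fold. The strongest were H2BC4 and H2AC6, which share 1 CHD8 peak (fold 18.6), and H2BC9 (17.3). Neighbouring histone genes share peaks and near-identical sequence, so these genes are not separate observations. DNA replication genes had none in 15 of 51 (29.4%, 18.7 to 43.0, expected 37.7%), with CDC45, of the replicative helicase, at a fold of 42.0.

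Immediate early genes and tubulin, kinesin and dynein genes lay below their expected share, from fold as from width. SWI/SNF, ISWI and glycolysis genes did so from fold only. Of immediate early genes, 3 of 24, which are switched on soon after a stimulus, had CHD8 without TRRAP (12.5%, 4.34 to 31.004, expected 42.4%): FOS (fold 11.1), IER3 (10.2) and EGR3 (8.43). SWI/SNF and ISWI remodeler genes gave 5 of 31 (16.1%, 7.09 to 32.6, expected 34.9% from fold, but 29.9% from width and 29.2% from fold and width together), with DPF1 (15.5), SMARCC2 (14.6) and BRD7 (7.98) strongest. Glycolysis genes gave 3 of 16 (18.8%, 6.59 to 43.0, expected 45.1% from fold, but 38.3% from width and 40.8% from both), namely TPI1 (11.96), PGK1 (7.54) and ENO2 (7.10). Tubulin, kinesin and dynein genes gave 18 of 67 (26.9%, 17.7 to 38.5, expected 41.5%), with the transport motors KIF5B (23.5) and KIF3B (12.8) and the dynein light chain DYNLRB2 (11.96).

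The study's title names the target genes of MYC and E2F. MYC target genes gave 16 of 68 (23.5%, 15.03 to 34.9, expected 34.99% from fold, just past the interval, but 29.97% from width and 29.92% from both), with SERBP1 (41.1), PHB2, a prohibitin (29.6), and NIP7, a ribosome assembly factor (25.2), strongest. E2F target genes gave 26 of 77 (33.8%, 24.2 to 44.9, expected 40.7%), with RPA2 (37.2), TMPO, a nuclear lamina protein (21.7), and SMC6 (17.3). Of the regulators, MYC had a CHD8 peak with a fold of 11.1 whose nearest TRRAP peak was 58190 bp away, and an E2F word stood within 100 bp of its summit. The E2F4 peak (fold 11.5) lay 7812 bp from TRRAP and held none of the 20 words. The peak of KAT5, the catalytic subunit of TIP60, had a fold of 27.4, lay 7715 bp from TRRAP and held an ETS word. Among all genes of the TRRAP, TIP60 and SAGA complexes 12 of 37 had no TRRAP (32.4%, 19.6 to 48.5, expected 34.1%), with the SAGA subunit SUPT7L (38.9) and the TIP60 subunit DMAP1 (37.2) above KAT5.

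Genes of the nervous system had shares whose intervals held the expected value. Autism-associated genes gave 16 of 67 (23.9%, 15.3 to 35.3, expected 33.4%), with MBD5, DEAF1 and SETD1B (17.3 each). Synaptic genes gave 15 of 27 (55.6%, 37.3 to 72.4, expected 46.9%), with DLG2 (18.1), RIMS2 (17.7) and UNC13A (14.2). The DLG2 and RIMS2 summits lay −1235 and 869 bp from the start site. Neural stem cell markers gave 4 of 14 (28.6%, 11.7 to 54.6, expected 41.2%), with the fatty acid binding protein gene FABP7 (10.2), MSI1 (7.54) and SOX9 (6.22).

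**Figure D4:**
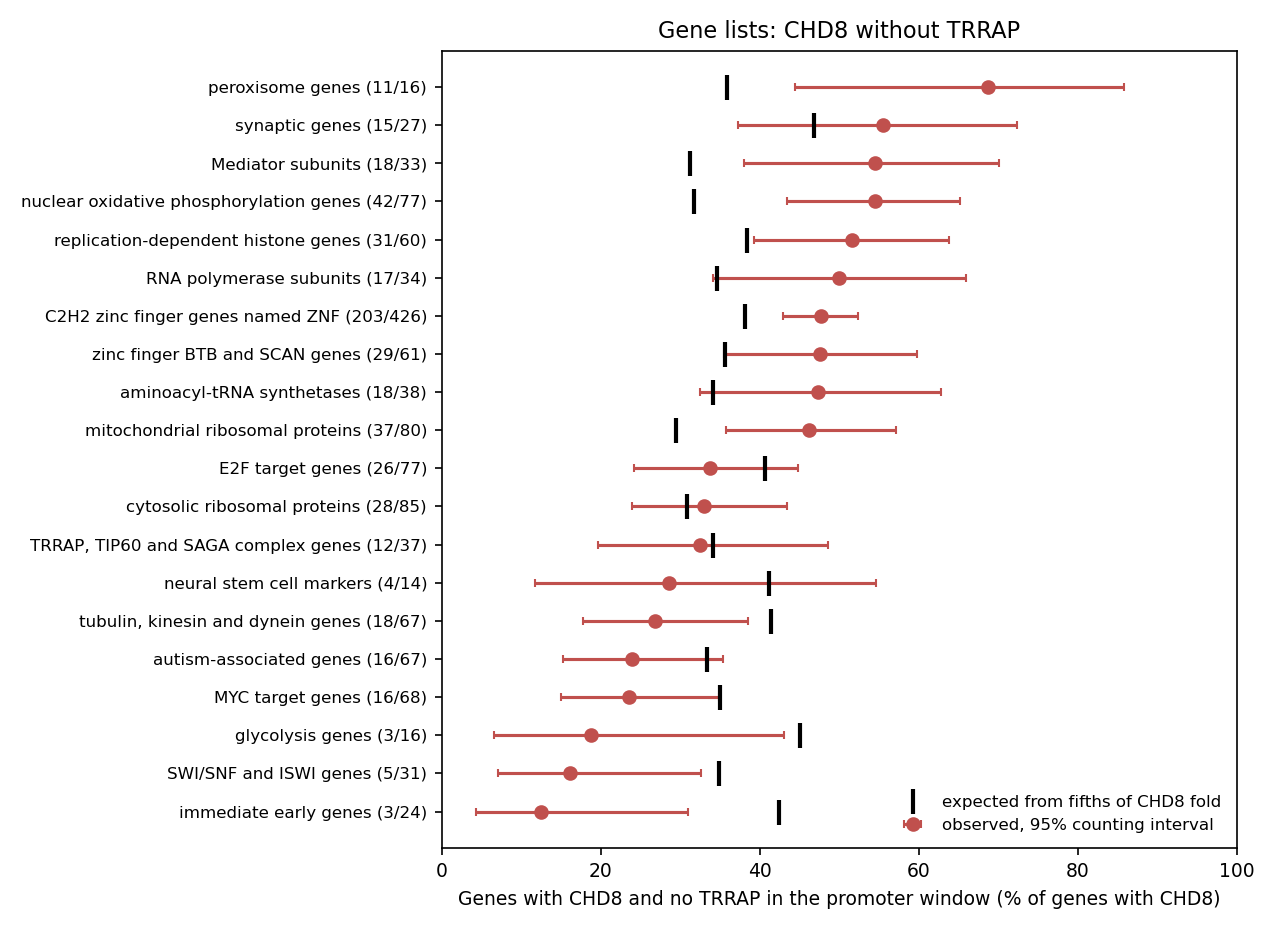
Share of CHD8-occupied genes with no TRRAP in the promoter window (percent, points with Wilson 95% intervals, counts in brackets) in 20 gene lists, with the share expected from quintiles of CHD8 fold (black bars). Peroxisome genes (68.8%), Mediator and oxidative phosphorylation genes (54.5% each) lie above their bars, and immediate early genes (12.5%) lie below theirs.

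The X chromosome had the highest share of CHD8 promoter peaks without TRRAP, 217 of 294 (73.8%, 68.5 to 78.5). Its peaks were weaker and narrower than the rest (median fold 8.43, median width 343 bp). The other chromosomes at the same quintiles of fold had 57.8%, and at the same cells of fold and width 60.6%. In the fourth quintile of CHD8 fold 20 of 25 X peaks had none (80.0%, 60.9 to 91.1), against 31.8% (30.0 to 33.6) on chromosomes 1 to 22, and in the highest quintile 13 of 27 (48.1%, 30.7 to 66.0) against 24.9% (23.3 to 26.6). In the lowest quintile the shares were 84.6% (75.8 to 90.6) and 79.6% (77.9 to 81.1). CHD8 was also found at fewer X genes, 276 of 859 (32.1%), than across all coding genes (56.1%). By gene, 71.0% of the 276 had no TRRAP (65.4 to 76.0, expected 50.1%). Where X peaks did have TRRAP, its median fold was 8.65, the same as over all promoter peaks with TRRAP. Strong X peaks without TRRAP, chosen after their values were seen, included THOC2, of the mRNA export complex (28.3), KDM5C, a histone demethylase (27.4), and RLIM, a ubiquitin ligase (25.7).

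Chromosome 19 came next with 522 of 939 (55.6%, 52.4 to 58.7), against 46.8% on the other chromosomes at the same fold, and chromosome 21 was lowest with 46 of 118 (39.0%, 30.7 to 48.0, against 51.3%). Chromosome 19 holds large clusters of zinc finger genes, but its share was not theirs alone. On chromosome 19, 111 of 209 ZNF genes had no TRRAP (53.1%, 46.3 to 59.8, expected 38.7%), and so did 311 of 650 other genes (47.8%, 44.03 to 51.7, expected 37.99%). Off chromosome 19, ZNF genes gave 92 of 217 (42.4%, 36.0 to 49.0, expected 37.5%) and other genes 38.4%.

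**Figure D5:**
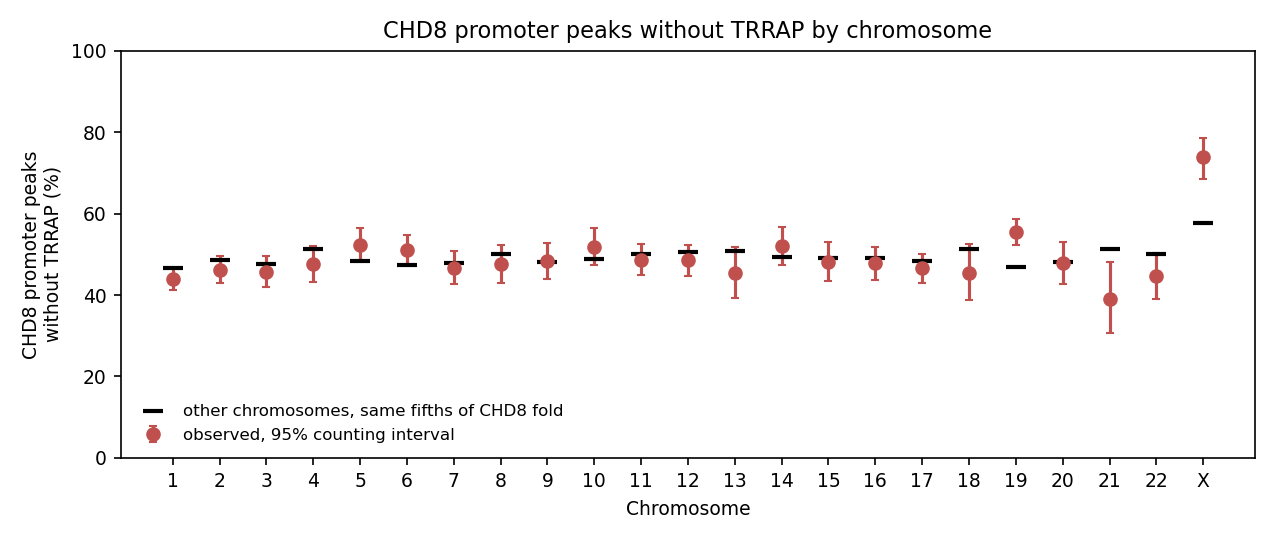
Share of CHD8 promoter peaks without TRRAP on each chromosome (percent, points with Wilson 95% intervals) and the share on all other chromosomes at the same quintiles of CHD8 fold (black dashes). Chromosomes X (73.8%) and 19 (55.6%) lie above their dashes, and chromosome 21 (39.0%) lies below its dash.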

How the data were processed

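Peak lists of 1 CHD8 and 1 TRRAP library were used; the IgG library was not analysed here. Per the submitters' processing notes, HISAT2, MACS2 2.1.1.20160309 and GRCh38 were used; their roles and settings, filters and read totals are not given in the sources used here, so depth is unknown and counting intervals cover counted peaks or genes only. The names of the deposited lists give a false discovery rate of 0.0001 for CHD8 and of 0.001 for TRRAP. Each peak carries a fold (a ratio over the caller's background), a −log10 p, a −log10 q, a score and a summit, all values of the authors. Folds were used only to rank, describe or group peaks within a list.

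All peaks lay within the GRCh38 sequences (0 past an end), and coordinates count from 1. Promoters were 1 kb on each side of canonical start sites of protein-coding genes (GENCODE release 44). A peak that touched several windows was assigned to the start nearest its summit. In gene counts and gene lists, every peak touching a gene's window counted, and the strongest gave the fold. Its summit could lie more than 1 kb from the start, as at H2BC9 (−1582 bp). It could also lie nearer another gene's start: the SUPT7L summit lay at −202 bp, and at −73 bp from SLC4A1AP. Members shared 0 bases with TRRAP peaks. Matched shares weight quintiles of CHD8 fold by the members; expected shares of gene lists average the share of all CHD8-occupied genes in the same quintiles. A summit was single-copy where the median 32-base word in 101 bp occurs once in the genome. The 20 words and 54 lists were written by hand; a name pattern that had caught 4 genes that are not aminoacyl-tRNA synthetases was corrected after values were seen. No p-value was computed, since each antibody had 1 library. Counting and matching were tested on simulated peaks. Sequences were read with pysam 0.24.0, tables were handled with pandas 2.3.3 and numpy 2.4.6, intervals came from scipy 1.17.1 and plots from matplotlib 3.10.9, in Python 3.11.15.

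Named genes are the 12 strongest members with single-copy summits, up to 3 strongest members per list, MYC, E2F4 and KAT5, the 3 smallest gaps and overlaps, the 3 widest members, the 2 strongest carriers per word and the 3 strongest peaks with TRRAP. The 2 strongest carriers whose 60-base flanks avoid exons and chromosome 8 supplied the printed sequences. Members, words and lists were chosen with earlier results of these data known.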

Additional observations from a re-analysis of the deposited data

How the results depend on the processing

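The share of CHD8 promoter peaks without TRRAP was 50.5% when the overlap had to cover 50% of the shorter peak, 58.8% with summits within 200 bp and 36.9% when a TRRAP peak within 1 kb counted. It was 30.8% for CHD8 peaks above the median fold, 46.3% and 49.8% with windows of 500 and 2500 bp, and 49.8% with all transcript starts. The share of genes was 41.0%, 50.3%, 30.0%, 41.0%, 38.3% and 37.1% in the same order, and within its interval under the 1 kb rule. Under the 50%, 200 bp and 1 kb rules, a gene counted if none of its CHD8 promoter peaks had TRRAP by that rule. TRRAP elsewhere in its window was not looked at separately, so these values differ in measure from the reported share of genes. The gene lists under these rules were counted in the same way. The CpG difference stayed below 0: −0.0259 with summits within 200 bp, −0.0632 with the 1 kb rule, −0.0577 above the median fold, −0.0499 with 500 bp, −0.0525 with all transcript starts and −0.0679 around the summit. A TRRAP q-value of at most 0.0001, single-copy summits and the autosomes gave peak shares of 48.2% to 48.9%, gene shares of 38.5% to 39.4% and CpG differences of −0.0424 to −0.0415. The number of words outside the matched share ran from 9 to 14 (11 as reported). The number of lists outside the expected share was 5 with quintiles of width and otherwise 8 to 12; the Mediator, mitochondrial ribosomal, histone, SWI/SNF, MYC target and glycolysis lists were those no longer outside with width, and the SWI/SNF, MYC target and glycolysis lists were also within the interval with fold and width together. The points of synaptic genes above expectation turned from 8.67 to −1.27 with summits within 200 bp; the cause was not tested. Of 203 values of the 17 lists followed, the other 202 kept their direction. The differences of the 7 words followed kept their sign in all 105 values. In percentage points they were ETS 1.76 to 7.84, YY1 0.484 to 2.80, NFY 0.296 to 2.18, SP −10.1 to −2.54, E-box −3.99 to −1.38, E2F −1.95 to −0.318 and CRE −1.48 to −0.222. Of these values 22 lay outside the counting interval of the reported difference. The NRF1, REST, ZNF143 and CTCF words were not followed. The X chromosome lay 11.9 to 31.8 points above the autosomes at matched fold or at matched fold and width (16.04 as reported). The matching on fold and width together, the members with no TRRAP in the window and the autosomes were chosen after seeing the data. No paired analysis was possible because each antibody had 1 library.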
